A study of Mus musculus and Bos taurus with 6 samples.

Results

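The let-7 guide strands and miR-98-5p are the 5p miRNA of the let-7 family, and they were followed through small RNA libraries of lactating mammary gland. Members were taken by name, as every mmu- or bta- row called let-7a, b, c, d, e, f, g, i or j, or miR-98, whose arm is 5p. This gave 10 of the 1750 miRNA listed for mouse (mmu-let-7a-5p, mmu-let-7b-5p, mmu-let-7c-5p, mmu-let-7d-5p, mmu-let-7e-5p, mmu-let-7f-5p, mmu-let-7g-5p, mmu-let-7i-5p, mmu-let-7j and mmu-miR-98-5p) and 9 of the 1539 listed for bovine, where let-7j is not listed. The series holds 6 libraries in 3 groups. The mouse group is total RNA of whole mammary gland from FVB/N mice at lactation day 12, with 1 mouse in each of 2 libraries. The AGO2 group is RNA of the same strain, organ and day after co-immunoprecipitation with a monoclonal antibody against Argonaute 2, again in 2 libraries. The paper took left and right glands from 2 FVB/N mice and made the AGO2 libraries from 2 animals. It does not say whether these were the same mice, which is possible, and the libraries were treated as independent. The bovine group is total RNA of mammary biopsies from Holstein cows at mid-lactation on a low forage diet, with 2 libraries that are each a pool of 2 cows. The mice were primiparous and the cows multiparous, and mouse glands were excised without their lymph node where cows gave biopsies. Bovine RNA was also isolated with another kit than mouse RNA. Species, parity, tissue sampling, kit and pooling therefore cannot be told apart.

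let-7 miRNA are cut from hairpin precursors, and 1 strand, the guide, is loaded into an Argonaute protein and pairs with target mRNA through its seed, nucleotides 2 to 8. Because members that share the seed can pair with the same sites, they are thought to repress largely the same mRNA. The family is known for high levels in differentiated tissues and for precursors that the LIN28 proteins keep from being processed in undifferentiated cells. AGO2 is the Argonaute that can also cleave its target.

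The sequences of all members are shown because the results turn on miRNA that differ by few nucleotides. They are those deposited with the counts, all 10 equal the RefSeq sequence for mouse, and capitals mark the seed.
mmu-let-7a-5p: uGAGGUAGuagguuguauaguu
mmu-let-7b-5p: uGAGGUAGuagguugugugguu
mmu-let-7c-5p: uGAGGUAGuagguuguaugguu
mmu-let-7d-5p: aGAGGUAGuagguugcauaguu
mmu-let-7e-5p: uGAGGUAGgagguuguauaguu
mmu-let-7f-5p: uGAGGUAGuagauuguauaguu
mmu-let-7g-5p: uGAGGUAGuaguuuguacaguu
mmu-let-7i-5p: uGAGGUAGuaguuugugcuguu
mmu-miR-98-5p: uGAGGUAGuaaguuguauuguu
mmu-let-7j: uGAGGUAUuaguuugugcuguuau
bta-let-7e: uGAGGUAGgagguuguauagu
Of the 9 bovine members, 8 had the mouse sequence to the last base, and bta-let-7e was listed with 21 nt against 22 nt in mouse. With positions counted from 1 at the 5′ end and the base of let-7a-5p given before the position, let-7c-5p differed from let-7a-5p by A19G alone, let-7e-5p by U9G alone and let-7f-5p by G12A alone. let-7b-5p carried A17G and A19G, let-7d-5p carried U1A and U16C, let-7g-5p carried G12U and U18C, and miR-98-5p carried G11A and A19U. let-7i-5p was the farthest 22-nt member, with G12U, A17G, U18C and A19U. let-7j differed from let-7i-5p by G8U, which lies in the seed, and by its 24 nt. The authors counted reads from 17 nt, and let-7a-5p and let-7c-5p, which share their first 18 nucleotides, were the only pair of members that such a short read could not separate. The number of mismatches allowed when reads were counted is not given in the sources used here, so the split between near-identical members is uncertain.

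In the mouse genome the 10 members were matched to 12 hairpins of the RefSeq list on GRCm38.p6, with gene overlaps from GENCODE on the same build. let-7a-2 was not placed here. let-7a-1 (chr13:48538179-48538272), let-7f-1 (chr13:48537829-48537917) and let-7d (chr13:48536012-48536114) lie together on the minus strand in exons of the long non-coding RNA 6720427I07Rik. let-7c-2 (chr15:85706603-85706697) and let-7b (chr15:85707319-85707403) lie 622 bases apart in exons of the non-coding Lncppara. let-7c-1 (chr16:77599657-77599750) lies in an intron of the non-coding Mir99ahg, 657 bases from miR-99a. let-7e (chr17:17830352-17830444) lies in an intron of Spaca6, 368 bases from miR-125a. let-7f-2 (chrX:151912346-151912428) and miR-98 (chrX:151913214-151913321) share an intron of Huwe1. let-7g (chr9:106178840-106178927) lies in an intron of Wdr82, let-7i (chr10:122985640-122985724) in an exon of the transcribed pseudogene D630033A02Rik and let-7j (chr3:140028249-140028370) outside the annotated genes.

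Counts per library summed to between 3909166 and 10613807, lowest in the AGO2 group, and RPM (a miRNA's reads per 1000000 counts of its library) below refer to these sums. The paper reports that a high share of the AGO2 reads was lost in cleaning and size selection. It also marks its AGO2 sample 2 for many reads of low count, which miRDeep2 later discarded. The limit that a count of 0 allows, 3 counts, lay between 0.283 and 0.767 RPM. Without molecular identifiers on the reads, such limits and intervals describe counting error alone. Over all miRNA with at least 100 RPM in a library of the group, the SD of the log2 ratio of library 1 over library 2 was 0.93 in mouse, 0.88 in AGO2 and 0.31 in bovine. The median of this ratio over the same miRNA was 0.24, 0.23 and 0.09 in that order. For the members, the median log2 ratio was 0.83 in mouse, with 9 of 10 higher in library 1. In AGO2 it was 0.96, with 8 of the 8 that reached 100 RPM higher in library 1. The 2 below 100 RPM, miR-98-5p and let-7j, were higher in AGO2 library 2. In bovine it was 0.01. Mouse library 1 and AGO2 library 1 therefore held more of most let-7 guide strands than their partners, and the bovine pools did not differ this way. All 7 epithelial marker miRNA of a fixed list (miR-200 family, miR-205-5p, miR-148a-3p) had counts in every library, with summed levels of 247591 to 274736 RPM in mouse, 436212 to 462892 RPM in AGO2 and 151309 to 154394 RPM in bovine. Its members did not move together, since miR-200a-3p and miR-141-3p were called higher in AGO2 (edgeR adjusted p = 0.000388 and 0.00976) and miR-200b-3p and miR-200c-3p lower (edgeR adjusted p = 0.0174 and 0.0318). They also split in bovine, where miR-205-5p was called higher than in mouse (edgeR adjusted p = 0.00243). miR-200a-3p, miR-200b-3p and miR-429-3p were called lower there (edgeR adjusted p = 0.00177, 0.0367 and 0.00219). miR-200c-3p, miR-141-3p and miR-148a-3p were not called in bovine. The paper also lists miR-148a-3p among abundant miRNA of muscle and liver, so this sum is not epithelial alone. miR-148a-3p had 87788 and 85990 RPM in mouse, 98175 and 94608 RPM in AGO2 and 73702 and 74936 RPM in bovine. Erythroid markers (3 of 3 with counts) summed to 6504 to 13343 RPM in mouse, 15527 to 32468 RPM in AGO2 and 1098 to 1709 RPM in bovine. All 5 stromal and contractile markers had counts and summed to 54443 to 71185 RPM in mouse, 35114 to 37249 RPM in AGO2 and 63692 to 78041 RPM in bovine. The lower AGO2 sum followed miR-143-3p, with 49138 and 63991 RPM in mouse and 29362 and 29602 RPM in AGO2. miR-199a-5p went the other way, with 227 and 338 RPM in mouse and 610 and 891 RPM in AGO2. miR-145a-5p, miR-199a-3p and miR-214-3p overlapped between mouse and AGO2. Both endothelial markers summed to 24194 to 34265 RPM, 28819 to 29280 RPM and 55972 to 62356 RPM in the same order, with miR-126a-3p called lower and miR-126a-5p higher in AGO2 (edgeR adjusted p = 0.0274 and 0.0422). The 5 leukocyte markers summed to between 1263 and 3285 RPM in all libraries. In bovine over mouse, miR-150-5p and miR-155-5p were called higher (edgeR adjusted p = 0.00297 and 0.00747). miR-223-3p was called lower (edgeR adjusted p = 0.0163), and miR-142-3p and miR-142-5p were not called. Skeletal muscle markers (3 of the 4 are listed, with miR-206-3p at 0 in mouse library 2) summed to between 27.9 and 782 RPM. Neuronal markers summed to between 18.5 and 97.6 RPM. The liver miRNA miR-122-5p stayed at or below 2.87 RPM, with 0 counts in AGO2 library 1. The part of these markers in the results was not tested, and in tissue RNA fewer cells of a type and less RNA per cell cannot be told apart.

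Together the members took 14.6% and 9.23% of all counts in the mouse libraries, 2.95% and 1.50% in the AGO2 libraries and 16.3% and 18.3% in the bovine libraries. The means were 11.9% ± 3.78 in mouse, 2.22% ± 1.02 in AGO2 and 17.3% ± 1.40 in bovine (SD, n = 2 each). The 3 groups did not overlap, with AGO2 lowest and bovine highest, and the 95% Wilson intervals of these shares were at most 0.0236 percentage points to each side. With 2 libraries against 2, no exact test of the share can reach a p under 0.05, and none was made.

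In mouse mammary gland, let-7e-5p, miR-98-5p and let-7j lay below the other 7 members in both libraries. let-7g-5p was highest on average, with 22111 RPM in library 1 and 28853 RPM in library 2. let-7i-5p had 21984 and 18330 RPM, and let-7f-5p had 24076 and 14592 RPM. let-7g-5p was the only member higher in mouse library 2 than in library 1. let-7c-5p had 28124 and 10442 RPM. let-7a-5p had 24276 and 11038 RPM. Both stood above let-7i-5p in library 1 and below it in library 2, so that their place in the order depended on the library. let-7b-5p had 13972 and 3377 RPM, let-7d-5p had 9089 and 4725 RPM, and let-7e-5p had 1389 and 352 RPM. miR-98-5p had 648 and 508 RPM and let-7j had 181 and 124 RPM. let-7b-5p was 4.14-fold and let-7e-5p 3.94-fold apart between the mouse libraries, the widest gaps among the members. By the mean the order was let-7g, i, f, c, a, b, d, e, miR-98 and let-7j. Of the neighbours in this order, let-7g-5p and let-7i-5p, let-7d-5p and let-7e-5p, and miR-98-5p and let-7j did not overlap, and all other neighbours did.

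**Figure D1:**
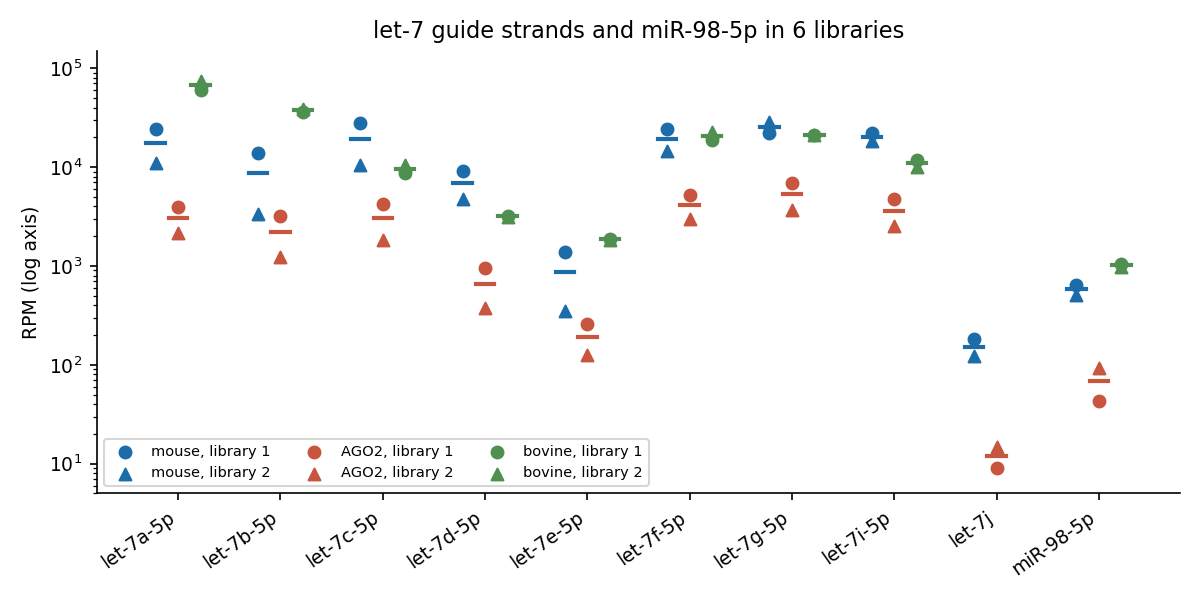
RPM of each member (log axis) in the 2 mouse, 2 AGO2 and 2 bovine libraries, with library 1 as circles, library 2 as triangles and the group mean as a bar. All 10 members lie lower in both AGO2 libraries than in both mouse libraries, and let-7a-5p and let-7b-5p lie higher in both bovine libraries than in both mouse libraries.

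The comparison of AGO2 with mouse libraries asks which miRNA the precipitate holds relative to the whole gland. All 10 let-7 members were lower in the AGO2 libraries, with log2 fold changes from -3.50 to -1.82. let-7g-5p had 6850 and 3712 RPM in AGO2 and let-7f-5p had 5211 and 2960 RPM. let-7i-5p had 4710 and 2544 RPM. The most abundant member of an AGO2 library thus stayed under the lowest mouse value of let-7c-5p, let-7a-5p or let-7g-5p. let-7a-5p had 3987 and 2151 RPM, let-7c-5p had 4270 and 1813 RPM, and let-7b-5p had 3178 and 1228 RPM. let-7d-5p had 944 and 374 RPM. let-7b-5p lay closest to its mouse range, with its higher AGO2 value just under its lower mouse value of 3377 RPM. let-7e-5p had 256 and 126 RPM, miR-98-5p had 43.2 and 93.4 RPM, and let-7j had 8.95 and 14.9 RPM, from 35 and 75 counts. miR-98-5p and let-7j were the only members higher in AGO2 library 2. By the mean the order was let-7g, f, i, a, c, b, d, e, miR-98 and let-7j, in which neighbours from let-7g-5p to let-7b-5p overlapped and those from let-7b-5p down did not.

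Counts of 299 miRNA were tested with edgeR's quasi-likelihood test, with p-values adjusted by Benjamini-Hochberg over all 299 and called at an adjusted p under 0.05. All 10 members passed as lower, against 12.4% of all 299 miRNA called lower. All 10 were also lower by RPM in both AGO2 libraries than in both mouse libraries, against 42.1% of the 299. The median log2 fold change was -2.35 over the members and -0.12 over all 299 miRNA. In order of log2 fold change from the lowest, the members ranked 11th to 50th of the 299.
let-7j (log2 fold change -3.50 ± 0.77 SE, edgeR adjusted p = 0.00196) and let-7d-5p (-3.25 ± 0.60, edgeR adjusted p = 0.000543) had the lowest fold changes. miR-98-5p followed with -2.90 ± 0.70 (edgeR adjusted p = 0.00336). let-7c-5p (-2.52 ± 0.53), let-7a-5p (-2.37 ± 0.50), let-7i-5p (-2.34 ± 0.46), let-7g-5p (-2.14 ± 0.44) and let-7f-5p (-2.10 ± 0.46) had edgeR adjusted p between 0.000871 and 0.00196. let-7e-5p (-2.03 ± 0.72, edgeR adjusted p = 0.0410) and let-7b-5p (-1.82 ± 0.61, edgeR adjusted p = 0.0318) were closest to the threshold. The standard errors of neighbouring members overlapped, so no order among them is drawn. Leaving out AGO2 library 2 left 3 members called, let-7d-5p, let-7j and miR-98-5p, all 10 still with a negative fold change. Without mouse library 1, 7 were called, and the log2 fold changes of let-7b-5p and let-7e-5p were -0.53 and -0.79.

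Within the family, let-7g-5p and let-7a-5p lay within their mouse shares in the AGO2 libraries, let-7d-5p lay below its own and let-7f-5p above. let-7g-5p took 15.2% and 31.2% of the member counts in mouse and 23.3% and 24.7% in AGO2. let-7a-5p took 16.6% and 11.95% in mouse and 13.5% and 14.3% in AGO2. For both, the AGO2 values fell between the mouse values. let-7f-5p took 16.5% and 15.8% in mouse and 17.7% and 19.7% in AGO2. let-7d-5p was outside its mouse range in the other direction, with 6.23% and 5.12% of the member counts in mouse and 3.20% and 2.49% in AGO2. let-7f-5p, which has a hairpin in the same cluster on chromosome 13 and another on X, had 2.65 and 3.09 times the counts of let-7d-5p in mouse and 5.52 and 7.93 times in AGO2. let-7j, which resembles let-7i-5p, had 1 count for every 121 and 148 counts of let-7i-5p in mouse and for every 526 and 171 in AGO2.

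As background, let-7 hairpins share primary transcripts with miRNA of the miR-99/100 and miR-125 families. The hairpin list used here gave only miR-99a and miR-125a within 10 kb of a hairpin placed above. A mate that it did not place there, such as miR-99b, may still lie beside let-7. Of 5 such cluster mates (miR-99a-5p, miR-99b-5p, miR-100-5p, miR-125a-5p and miR-125b-5p), 1 passed the test as higher in AGO2 and 0 as lower, against 15.4% and 12.4% of all miRNA tested, and their median log2 fold change was 1.00. Counts this small lie near the background and say nothing particular about the cluster mates. miR-99b-5p was the miRNA called, with 314 and 102 RPM in mouse, 859 and 948 RPM in AGO2 and a log2 fold change of 2.30 ± 0.68 (edgeR adjusted p = 0.0151). miR-99a-5p, next to let-7c-1, had 3785 and 3869 RPM in mouse and 6882 and 7386 RPM in AGO2, a log2 fold change of 1.05 ± 0.48 (edgeR adjusted p = 0.0921). The ratio of miR-99a-5p to let-7c-5p was 0.135 and 0.371 in mouse and 1.61 and 4.07 in AGO2, although let-7c-5p also comes from a second hairpin. The ratio of miR-125a-5p to let-7e-5p, which has only the hairpin beside miR-125a, was 1.59 and 1.60 in mouse and 12.3 and 14.4 in AGO2. That of miR-99b-5p to let-7e-5p was 0.226 and 0.291 in mouse and 3.36 and 7.53 in AGO2. The mouse libraries thus gave nearly the same ratio of miR-125a-5p to let-7e-5p even though let-7e-5p differed 3.94-fold between them.

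The 3p arms of the same hairpins are the strands usually discarded. let-7a-1-3p and let-7d-3p were above the count limit of the test in mouse libraries, and let-7b-3p, let-7e-3p, let-7f-1-3p and let-7i-3p passed it through AGO2 libraries alone, so no count over the 3p arms is given. let-7g-3p, let-7c-1-3p and miR-98-3p, with at most 16, 11 and 30 counts in a mouse or AGO2 library, did not enter the test. let-7a-1-3p shares its sequence and its counts with let-7c-2-3p. let-7d-3p had 53.7 and 30.0 RPM in mouse and 7944 and 6120 RPM in AGO2, a log2 fold change of 7.55 ± 0.68 (edgeR adjusted p = 1.64e-07). let-7d-5p was thus the minor strand of its hairpin in the precipitate. The 3p arm took 0.587% (95% Wilson interval 0.538 to 0.641) and 0.632% (0.558 to 0.714) of the counts of both let-7d arms in mouse, and 89.4% (89.1 to 89.7) and 94.2% (94.0 to 94.5) in AGO2. For let-7a, the 3p arm took 0.193% (0.176 to 0.212) and 0.617% (0.569 to 0.669) in mouse and 10.2% (9.78 to 10.7) and 11.7% (11.2 to 12.3) in AGO2. let-7d was the only 1 of the 6 members plotted in which the 3p arm counted outnumbered the 5p arm. For let-7a and let-7f this is not a ratio within 1 hairpin. let-7f-5p also comes from let-7f-2, and the let-7a 3p counts are also those of let-7c-2-3p.

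**Figure D2:**
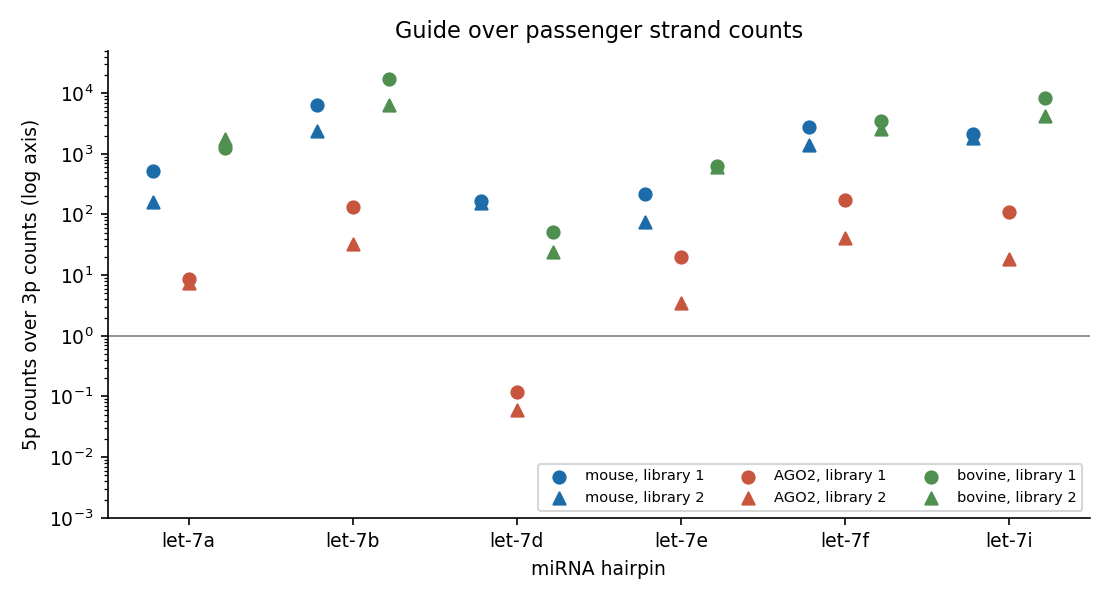
Counts of the 5p arm over counts of the 3p arm (log axis) for 6 members in the 6 libraries, with library 1 as circles and library 2 as triangles. The grey line marks equal counts, and only let-7d in the AGO2 libraries, at 0.119 and 0.0610, lies under it. The let-7a arm is let-7a-1-3p in mouse, and bovine 3p arms of let-7b, d, e, f and i carry names of other species.

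The comparison of bovine with mouse libraries asks which miRNA the glands of both species hold at like levels. The family did not move as a block between the species. let-7a-5p was higher in bovine, with 60102 and 74006 RPM against 24276 and 11038 RPM in mouse. let-7b-5p was higher as well, with 36362 and 38815 RPM against 13972 and 3377 RPM. let-7i-5p was lower in bovine, with 11702 and 10085 RPM against 21984 and 18330 RPM, and let-7d-5p was lower, with 3219 and 3138 RPM against 9089 and 4725 RPM. In these 4 members the libraries of the species did not overlap. let-7g-5p had 21250 and 21027 RPM and let-7f-5p had 18994 and 22440 RPM in bovine. let-7c-5p had 8666 and 10610 RPM. let-7f-5p and let-7c-5p overlapped with mouse, and let-7g-5p in bovine lay just under both mouse libraries. let-7e-5p had 1864 and 1849 RPM and miR-98-5p had 1046 and 980 RPM, both above their mouse libraries.

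Of the 139 miRNA matched by name between the species that reached 100 RPM, 9 were members. edgeR's quasi-likelihood test, adjusted by Benjamini-Hochberg over all 139, called 2 of the 9 members higher and 2 lower, against 29.5% of all 139 called higher and 25.9% called lower. By RPM, 4 members were higher in both bovine libraries than in both mouse libraries and 3 were lower, against 48.2% and 34.5% of the 139. These shares lie near the background, so the counts alone say nothing particular about the family. The median log2 fold change was -0.03 over the members and 0.21 over all 139 miRNA.
let-7b-5p had a log2 fold change of 2.00 ± 0.64 (SE, edgeR adjusted p = 0.0397) and let-7a-5p of 1.80 ± 0.42 (edgeR adjusted p = 0.0131). let-7d-5p had -1.25 ± 0.37 (edgeR adjusted p = 0.0301) and let-7i-5p had -1.03 ± 0.26 (edgeR adjusted p = 0.0160). let-7c-5p, which differs from let-7a-5p at position 19 only, had -1.12 ± 0.48 (edgeR adjusted p = 0.0985) and did not pass. let-7e-5p (0.98 ± 0.62), miR-98-5p (0.67 ± 0.31), let-7f-5p (-0.03 ± 0.32) and let-7g-5p (-0.42 ± 0.28) had edgeR adjusted p between 0.121 and 0.939. These 5 members are not shown to be alike in both species. By RPM, let-7e-5p, miR-98-5p and let-7g-5p did not overlap with mouse, and a test of 2 libraries against 2 can miss such differences. When a library was left out, the number of members called moved in both directions, as did that over all miRNA tested, so it is not read. With a library left out, the log2 fold change ranged from 1.26 to 3.20 for let-7b-5p, from 0.25 to 2.12 for let-7e-5p and from -1.71 to -0.39 for let-7c-5p, each with its ends set by the 2 mouse libraries.

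**Figure D3:**
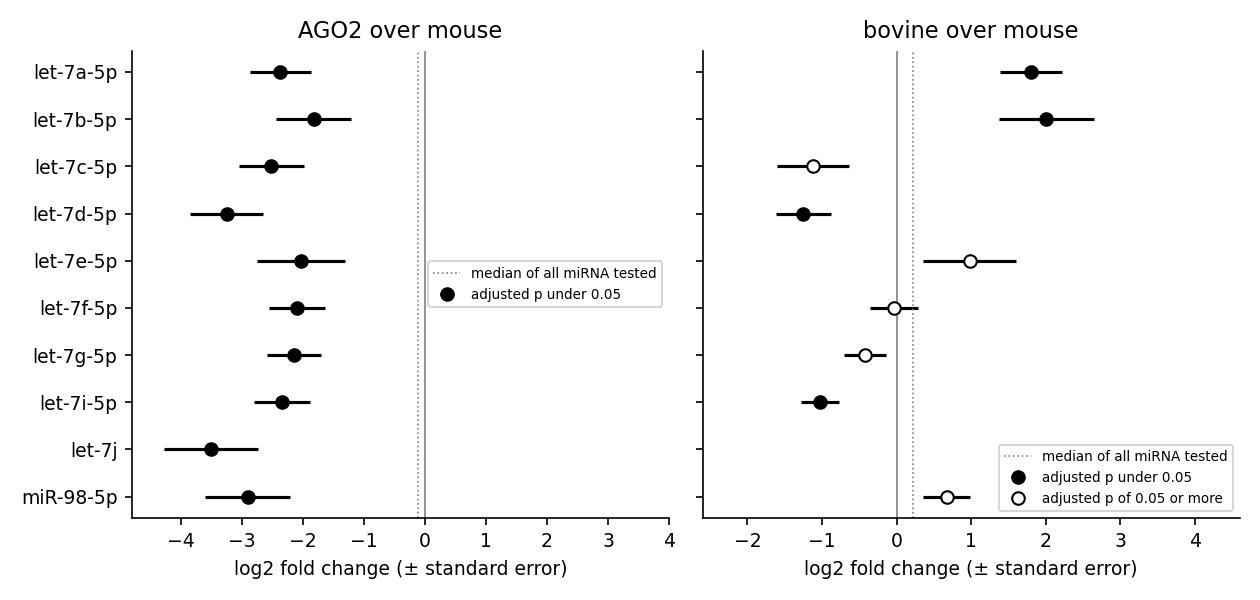
log2 fold change of each member with its standard error, for AGO2 over mouse (left) and bovine over mouse (right), filled where the edgeR adjusted p was under 0.05, with the dotted line at the median of all miRNA tested (-0.12 and 0.21). All 10 members lie between -3.50 and -1.82 on the left, and the 9 bovine members lie on both sides of 0 on the right, from -1.25 to 2.00.

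The make-up of the family in bovine mammary gland was different from that in mouse. let-7a-5p took 36.8% and 40.5% of the member counts in bovine against 16.6% and 11.95% in mouse, and let-7b-5p took 22.3% and 21.2% against 9.58% and 3.66%. let-7c-5p took 5.31% and 5.80% in bovine against 19.3% and 11.3% in mouse. let-7i-5p took 7.17% and 5.51% against 15.1% and 19.9%. None of these ranges overlapped, and the first 2 members were higher and the other two lower in bovine. let-7g-5p took 13.0% and 11.5% in bovine, under its mouse values, and let-7f-5p took 11.6% and 12.3% against 16.5% and 15.8%. By mean RPM the bovine order was let-7a, b, g, f, i, c, d, e and miR-98, in which only let-7g-5p and let-7f-5p, and let-7i-5p and let-7c-5p, overlapped as neighbours.

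The ratio of let-7a-5p to let-7c-5p separated the species without reference to other miRNA, since it is formed within a library. It was 0.863 and 1.06 in mouse, 0.934 and 1.19 in AGO2, and 6.94 and 6.97 in bovine. The ratio of let-7b-5p to let-7c-5p, which share a cluster through let-7c-2 in mouse, was 0.497 and 0.323 in mouse, 0.744 and 0.678 in AGO2 and 4.20 and 3.66 in bovine. The ratio of let-7g-5p to let-7i-5p stayed between 1.01 and 2.09, with 1.01 and 1.57 in mouse, 1.45 and 1.46 in AGO2 and 1.82 and 2.09 in bovine. let-7a-5p is the member that shares short reads with let-7c-5p, and the part of read assignment in their ratio was not tested.

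**Figure D4:**
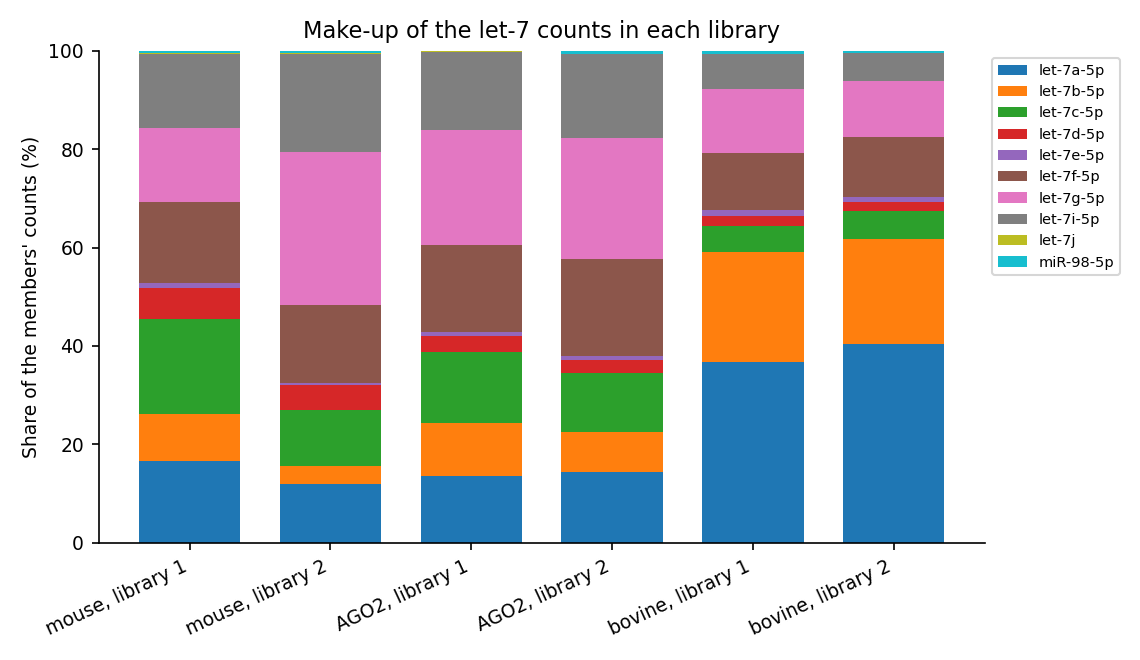
Share of each member in the summed member counts (percent) in each of the 6 libraries, as stacked bars that add to 100. In bovine, let-7a-5p and let-7b-5p make up 36.8% to 40.5% and 21.2% to 22.3% of the bar, and in mouse and AGO2 let-7a-5p stays between 11.95% and 16.6%.

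Of the 5 cluster mates, 3 were called higher in bovine than in mouse and 0 lower, against the 29.5% and 25.9% above, with a median log2 fold change of 2.11. miR-99a-5p had 18288 and 18335 RPM in bovine against 3785 and 3869 RPM in mouse, a log2 fold change of 2.11 ± 0.26 (edgeR adjusted p = 0.00182). miR-100-5p had 1531 and 1374 RPM against 225 and 161 RPM, and miR-125b-5p had 4504 and 5019 RPM against 967 and 276 RPM. Both rose, by 2.78 ± 0.35 (edgeR adjusted p = 0.00182) and 2.82 ± 0.61 (edgeR adjusted p = 0.0113) on the log2 scale. The ratio of miR-99a-5p to let-7c-5p was 2.11 and 1.73 in bovine and that of miR-125a-5p to let-7e-5p was 2.56 and 2.74, both above their mouse values. That of miR-99b-5p to let-7e-5p was 0.182 and 0.179, below its mouse values.

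The miRNA whose levels followed the sum of the members most closely were sought among 76 others matched by name with at least 100 RPM in every library, by the root mean square difference of log2 RPM, each centred on its own mean over the 6 libraries. The nearest were miR-24-3p (0.366), miR-22-5p (0.446), miR-375-3p (0.479), miR-200c-3p (0.530) and miR-151-5p (0.548), against a median of 1.33 over the 76. miR-24-3p had 12483 and 12306 RPM in mouse, 2950 and 2894 RPM in AGO2 and 19618 and 20689 RPM in bovine. Its order of groups is that of the family, with a smaller gap between libraries of a group. miR-200c-3p, an epithelial miRNA, had 17888 and 5127 RPM in mouse, 4567 and 1788 RPM in AGO2 and 24588 and 30030 RPM in bovine, and like let-7b-5p it was lower in mouse library 2. Among the 9 members matched by name, let-7f-5p was nearest to the sum (0.274) and let-7b-5p farthest (0.882), and let-7j was not compared. Each member is part of that sum, so its distance cannot be set against those of the 76. These distances are descriptions over 6 libraries that share their depth and composition within a library.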

How the data were processed

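Counts of 6 libraries, 2 in each of 3 groups, were used as deposited. After cutting poly-A stretches, the authors kept reads from 17 nt and made the counts per mature miRNA with the quantifier of miRDeep2 on known and predicted precursors. The builds were GRCm38 and UMD3.1. Since libraries were poly(A)-tailed, an A at a 3′ end cannot be told from the tail. The deposited prediction lists hold a score, which is the authors' miRDeep2 log-odds. Columns of rescaled counts were not used.

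RPM were computed over the sum of counts. Members and lists were chosen with earlier results of these data known. Named miRNA were the members, other rows with their seed, their 3p arms, 5 cluster mates and the 5 nearest patterns. edgeR 4.0.16 in R 4.3.3 was used with TMM, the quasi-likelihood test and Benjamini-Hochberg adjustment at 0.05. AGO2 over mouse took miRNA with a count above 175 in a library, and bovine over mouse took those matched by name with 100 RPM in a library. The standard error was the size of the log2 fold change over the square root of F. Alternatives were DESeq2 1.42.0, its size factors, library totals, TMM without the members, no filter, matching by sequence and each library left out. The procedure was tested on simulated counts. edgeR draws the spread of each miRNA toward that of all miRNA tested. With all libraries kept, each p-value rests on the spread within both groups of its comparison, moderated in this way. These groups were 2 glands and 2 precipitates for AGO2 over mouse, and 2 glands and 2 pools for bovine over mouse. Python 3.11.15, pandas 2.3.3, NumPy 2.4.6 and matplotlib 3.10.9 were used. Targets were not analysed here.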

Additional observations from a re-analysis of the deposited data

Results flagged for a closer look

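Signal with the let-7 seed was also found outside the comparisons. In the list of bovine predictions, the hairpin bta-13_7394 (chr13:56133454-56133490 on the minus strand, UMD3.1) had a total read count of 2853 and a score of 0.5. Its 17-nt mature sequence equals the first nucleotides of let-7b-5p, with the seed in capitals.
bta-13_7394: uGAGGUAGuagguugug
In the counts its mature miRNA had 420 and 546 reads in the bovine libraries, 44.7 and 51.4 RPM. In mouse, mmu-let-7k, a listed miRNA with the let-7 seed that is no member, had 18 and 4 counts in the mouse libraries and 1 in each AGO2 library, so that only the mouse libraries lay above the limit of 3 counts.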

How the results depend on the processing

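No paired analysis was made. GEO's labels give no replicate numbers, and the numbers 1 and 2 used here only name libraries. The paper numbers its mouse and AGO2 samples 1 and 2 but does not say that equal numbers share a mouse. If they do, the comparison of AGO2 with mouse leaves that pairing out. In AGO2 over mouse, all 10 members kept a negative fold change under all 9 alternatives. The number called was 10 with the size factors of DESeq2, with TMM factors without the members, with DESeq2's own test and without the filter, and 8 with library totals alone, where let-7b-5p and let-7e-5p were not called. It ranged from 3 to 10 when each library was left out, with 3 without AGO2 library 2. A group left with 1 library is assumed to vary like the other. In bovine over mouse, 4 members were called, and 3 to 5 under the alternatives that keep all libraries. With each library left out the number ranged from 1 to 7. let-7b-5p was not called with the size factors of DESeq2 (adjusted p = 0.0734), without the filter (0.0523) or with rows matched by sequence (0.0980, 76 miRNA tested), and let-7c-5p was called lower by DESeq2 (-1.28, adjusted p = 0.0110) and without the filter (-1.59, edgeR adjusted p = 0.0215). let-7d-5p was not called with library totals alone (edgeR adjusted p = 0.0598), and let-7g-5p was called lower without the filter (-0.91, edgeR adjusted p = 0.0449). let-7f-5p turned to 0.10 with library totals alone, and ranged from -0.39 to 0.23 with a library left out. The median log2 fold change of all miRNA was -0.12 with TMM, -0.01 with the size factors of DESeq2 and -0.27 with library totals in AGO2 over mouse, and 0.21, 0.03 and 0.36 in bovine over mouse, so members lie lower or higher by as much. Without the filter, 29 of 1750 miRNA were called higher in AGO2, against 46 of 299 with it. The median log2 fold change over those 1750 was 2.82, so members are set against another background there. In bovine, 69 of 229 were called lower without the filter, against 36 of 139 with it. With all rows that carry the seed, mean shares stayed at 11.9%, 2.22% and 17.3%. The cause of these changes was not tested.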

Other observations

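The gap between the mouse libraries differed among members and followed no single order of their base composition. let-7b-5p, with the highest GC content of the members (45.5%), was 4.14-fold higher in mouse library 1, and let-7f-5p and miR-98-5p, both at 31.8%, were 1.65-fold and 1.27-fold higher. At 36.4%, let-7a-5p was 2.20-fold higher in library 1 and let-7g-5p was 1.30-fold higher in library 2. Members at 40.9% spread widely, with 3.94-fold for let-7e-5p, 2.69-fold for let-7c-5p, 1.92-fold for let-7d-5p and 1.20-fold for let-7i-5p. The part of base composition in these gaps was not tested. In the mouse list, 11 mature sequences stood on more than 1 row, and 9 of them had equal counts on their rows in all 4 libraries.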
